A study of Mus musculus with 12 samples.

Results

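H3K9me2 in white adipose tissue (WAT) was compared between mice fed the standard chow diet (SCD) and mice fed the high-fat diet (HFD), as far as 1 library a diet allows. The rule took the peak lists of SCD_WAT_H3K9me2 and HFD_WAT_H3K9me2 and kept the peaks that scored 50 or higher. That gave 21746 SCD peaks of 40013 deposited and 21976 HFD peaks of 21976, that is 43722 of the 266606 peaks that the 8 lists of the series hold. Wild-type C57BL/6J mice went onto either diet at 6 weeks of age and the fat was taken at week 12, and the subcutaneous fat chromatin was fixed with 1% formaldehyde for 8 min before chromatin immunoprecipitation and sequencing (ChIP-seq). Both groups share the strain and the fixation, and how many mice went into a library is not given in the sources used here. Whole tissue was used, so adipocytes, macrophages, endothelial cells and stromal cells all contribute, and fewer cells of a type cannot be told apart from less of the mark per cell. The methods describe the antibody listed for H3K9me2 as directed at the trimethyl form and the antibody listed for H3K9me3 as directed at the dimethyl form. The names of the marks are therefore kept as the labels give them.

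Lysine 9 of histone H3 can be methylated by enzymes such as Ehmt2 (G9a), Ehmt1 (GLP), Setdb1 and Suv39h1, and the methylated residue is a mark of repressed chromatin. It is laid down over silent genes and over transposable elements, among them endogenous retroviruses and LINE-1 elements. The latter are retrotransposons that copy themselves through RNA with a reverse transcriptase of their own. In fat, Ehmt1 and the demethylase Kdm1a are known for their part in the brown and beige programs.

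The sequences beneath the peaks fell into kinds that the 4 classes of peak hold in unequal shares. The first kind is the inner part, called the body here, of a LINE-1 copy. Both stretches that follow lie in peaks found in HFD only, at chr7:46551107-46551306 and chr12:63070175-63070374, both on the minus strand of mm9 and printed 5′ to 3′, and they are alike at 190 of 200 positions. Capitals mark the 16-base run that recurred most in such peaks, so a higher count in HFD-only peaks follows in part from that choice.
HFD only, chromosome 7: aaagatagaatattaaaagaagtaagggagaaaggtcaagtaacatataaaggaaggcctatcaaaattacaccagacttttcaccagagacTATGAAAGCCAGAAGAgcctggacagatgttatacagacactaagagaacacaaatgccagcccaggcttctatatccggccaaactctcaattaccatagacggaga
HFD only, chromosome 12: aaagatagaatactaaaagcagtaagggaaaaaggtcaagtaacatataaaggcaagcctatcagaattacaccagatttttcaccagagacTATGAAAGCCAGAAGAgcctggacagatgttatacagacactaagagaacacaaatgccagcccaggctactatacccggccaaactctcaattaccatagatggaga
That run of letters stood in 850 of 9510 HFD-only peaks, in 0 of 9779 SCD-only peaks (for which the exact interval reaches 0.0377%), in 6 of 11716 shared SCD peaks and in 3 of 12177 shared HFD peaks.

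The second kind is the 5′ end of the same element, shown as 30 bases of a shared peak at chr3:90899069-90899098 on the minus strand, with the recurring run in capitals.
Shared, LINE-1 5′ end: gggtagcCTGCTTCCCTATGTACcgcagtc
These letters were in 7.38% of shared SCD peaks, 7.28% of shared HFD peaks, 2.03% of SCD-only peaks and 5.07% of HFD-only peaks. The run was chosen as the most frequent in shared SCD peaks at the 5′ end, which favors the shared classes. The third kind is a run of CA units, shown for an SCD-only peak of score 282.14 at chr9:60387398-60387475 on the plus strand, where capitals mark 9 units in a row.
SCD only, CA repeat: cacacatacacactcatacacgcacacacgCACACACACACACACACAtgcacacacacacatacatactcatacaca
A run of 6 CA units on either strand was in the central 200 bases of 11.3% of SCD-only peaks, against 3.15% and 3.01% of the shared SCD and HFD peaks, 2.17% of HFD-only peaks and 0.849% of all promoters.

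The fourth kind is promoter sequence. The 150 bases before a start site are shown for 5 genes, with each CpG in capitals. Lep encodes the hormone leptin and Wnt6 a secreted Wnt ligand, and both had a promoter peak in SCD only. Icam1 encodes an adhesion molecule that leukocytes bind and Uhrf1 a reader of methylated H3K9 that guides DNA methylation, and both had a promoter peak in HFD only. Klf5, a zinc finger factor of early adipogenesis, had a peak in both.
Lep, SCD only, chr6:29010070-29010219, plus strand: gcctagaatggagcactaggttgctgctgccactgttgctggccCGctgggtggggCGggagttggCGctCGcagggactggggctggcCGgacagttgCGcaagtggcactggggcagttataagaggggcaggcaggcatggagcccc
Wnt6, SCD only, chr1:74818316-74818465, plus strand: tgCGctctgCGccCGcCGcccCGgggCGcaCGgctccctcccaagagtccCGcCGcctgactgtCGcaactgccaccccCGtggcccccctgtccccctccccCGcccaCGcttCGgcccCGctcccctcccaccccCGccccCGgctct
Icam1, HFD only, chr9:20820254-20820403, plus strand: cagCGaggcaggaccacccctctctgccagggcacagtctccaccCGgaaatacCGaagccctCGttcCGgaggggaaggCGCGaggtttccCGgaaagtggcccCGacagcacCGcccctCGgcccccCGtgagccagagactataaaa
Uhrf1, HFD only, chr17:56443586-56443735, plus strand: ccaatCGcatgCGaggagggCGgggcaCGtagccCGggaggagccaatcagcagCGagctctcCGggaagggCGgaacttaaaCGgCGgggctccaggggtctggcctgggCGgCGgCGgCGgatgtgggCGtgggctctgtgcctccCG
Klf5, both diets, chr14:99697760-99697909, plus strand: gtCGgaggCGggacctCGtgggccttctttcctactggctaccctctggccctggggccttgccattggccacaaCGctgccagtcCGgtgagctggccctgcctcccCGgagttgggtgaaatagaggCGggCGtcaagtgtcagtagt
The stretch of Lep held 6 CpG, that of Klf5 8, those of Icam1 and Uhrf1 12 and 16, and that of Wnt6 17. The stretches were chosen, after the values were seen, among genes whose 150 bases lie within the peak and outside annotated exons. Lep, Wnt6, Icam1 and Uhrf1 are named again below, and Klf5 is not.

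The peak lists give a position and a score but no read depth. The score has no stated unit and was taken as -log10 of the p-value of a peak, multiplied by 10. The SCD list reaches down to a score of 30 (p of 0.001) and the HFD list to 50 (p of 1e-05), and a common lowest score gives both the same p-value threshold without equalizing their depth. There was no replicate, so the diets were described and not tested. The 95% intervals given are exact (Clopper-Pearson) and cover counting error only. The depth of both libraries is unknown, so the absence of a peak says only that none was called.

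At the common score the lists were of nearly equal number but not of equal extent. The 21746 SCD peaks covered 21.8 Mb and the 21976 HFD peaks 16.1 Mb. The SCD peaks were the wider and the stronger, with a median width of 890 bp in SCD against 653 bp in HFD and a median score of 90.9 against 79.6. By an overlap of at least 1 bp, 9961 SCD peaks (45.8%, 95% interval 45.1 to 46.5%) had no HFD peak, and 9729 HFD peaks (44.3%, 43.6 to 44.9%) had no SCD peak. The remaining 11785 SCD peaks and 12247 HFD peaks were shared.

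The share of peaks found in 1 diet fell as the score rose. Of SCD peaks scored 50 to 60, 74.7% had no HFD peak, and of those scored 200 or more, 11.8%. The HFD list ran from 72.4% to 5.43% over the same bins. Widths moved the same way, since 87.7% of SCD peaks under 500 bp and 15.01% of those of 1500 bp or more had no counterpart. Below the common score the SCD list held further peaks, and 1996 of the 9729 HFD-only peaks (20.5%) overlapped an SCD peak scored 30 to 50. Just inside the limit, 24.4% of 2144 SCD peaks scored 50 to 55 overlapped an HFD peak, and just outside it 19.4% of 2704 scored 45 to 50 did.

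**Figure D1:**
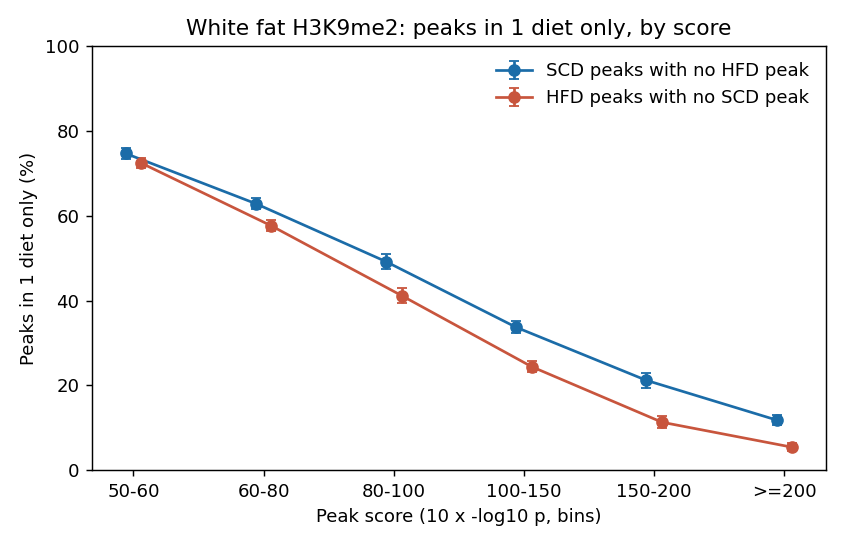
Share of white fat H3K9me2 peaks found in 1 diet only (y axis, %) by bins of peak score (x axis), with exact 95% intervals as bars, for SCD peaks (blue) and HFD peaks (red). The share falls from 74.7% to 11.8% in SCD and from 72.4% to 5.43% in HFD.

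Where both diets had a peak, the SCD peak was the wider. In 11253 pairs of 1 peak to 1 peak, the SCD peak was wider in 89.9%, and the HFD peak lay wholly within it in 66.8%. The median width was 1027 bp in SCD and 768 bp in HFD. Scores were closer, with a median of 120 in SCD and 106 in HFD and a median HFD-to-SCD ratio of 0.886 (quartiles 0.605 and 1.29), and 41.1% of pairs had the higher score in HFD. Across these pairs, which share 2 libraries, the scores had a Spearman rho of 0.423.

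Promoters were taken as the 3 kb before and after each annotated start of a protein-coding gene, and span 8.09% of the placed sequence. They held 58.1% of shared SCD peaks and 58.4% of shared HFD peaks. Of SCD-only peaks 33.2% (32.3 to 34.2%) and of HFD-only peaks 19.99% were at a promoter. Intergenic sequence took 60.3% of HFD-only peaks, against 35.0% of SCD-only peaks and 25.7% and 25.4% of the shared SCD and HFD peaks. Coding exons outside promoters held 676 SCD-only peaks and 114 HFD-only peaks. Of all SCD peaks in such exons 73.2% (70.2 to 76.0%) had no HFD peak, the highest share of any position in that list.

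**Figure D2:**
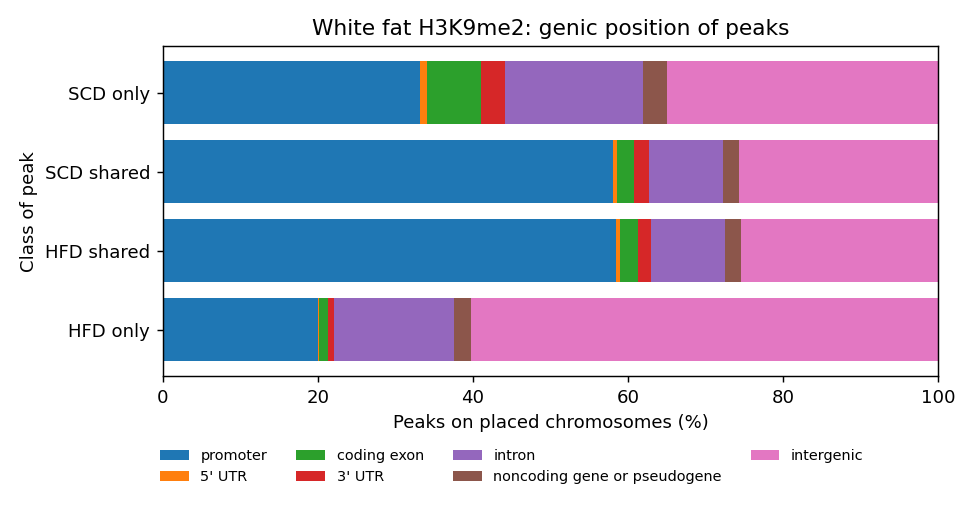
Genic position of white fat H3K9me2 peaks on placed chromosomes (x axis, % of the class) for SCD-only, shared and HFD-only peaks (y axis), with promoters at 3 kb on either side of a start. Promoters hold 58.1% and 58.4% of the shared classes and intergenic sequence 60.3% of HFD-only peaks.

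HFD-only peaks split into a group poor in GC and a group rich in it. Their median GC content was 45.9%, against 58.2% in SCD-only peaks, 63.4% and 65.5% in the shared SCD and HFD peaks and 41.8% in the placed sequence as a whole. Under 40% GC the HFD list held 3194 peaks, of which 3182 (99.6%) had no SCD peak, and from 40 to 45% it held 1427, of which 1397 had none. The SCD list held 83 and 532 peaks in these ranges. At 65% GC or more, 15.2% of HFD peaks and 17.8% of SCD peaks had no counterpart.

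**Figure D3:**
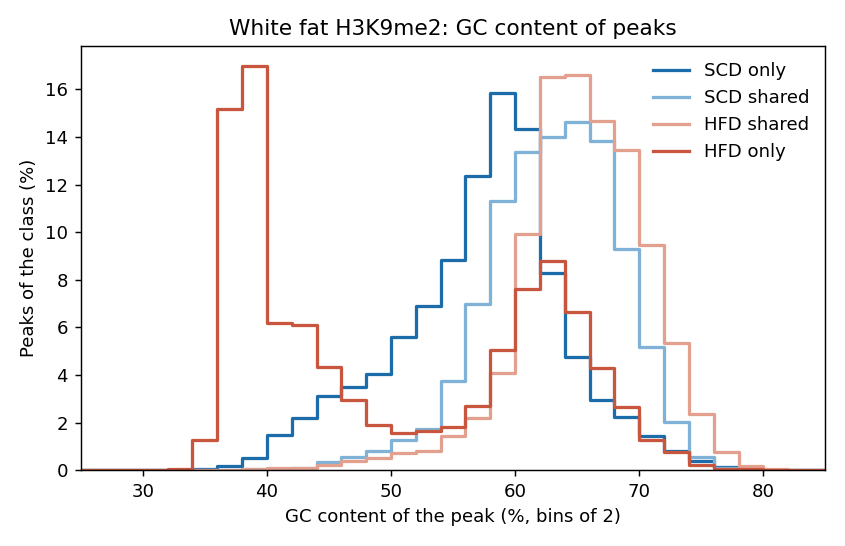
GC content of white fat H3K9me2 peaks (x axis, % in bins of 2) as a share of each class (y axis, %). HFD-only peaks (dark red) have a mode below 40% that the SCD-only (dark blue) and the shared classes (light colours) lack.

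Nearly all of the GC-poor HFD-only peaks held sequence that recurred among them. Of the 4579 HFD-only peaks under 45% GC, 4534 aligned over at least 200 bp with at least 1 other of them and 4479 (97.8%) with at least 100 others, with a median of 571. The peak with the most partners, at chr7:46548248-46552152, lies in a repeated element on the minus strand, taken here as 5991 bp. Its longest open reading frame has 420 residues and its sequence is that of a LINE-1 copy, which was read from the translated frames. No repeat annotation was used here. Its ends were set where fewer than 100 HFD peaks matched, so they depend on those peaks and are not annotated ends of the copy. The first 249 bp, called the 5′ end, are 56.6% GC and the rest, the body, 39.4%. The body was taken to begin where an open frame of 220 residues starts. A peak was given to the 5′ end or the body by the middle of its best alignment.

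The body of this element was matched by 5197 of 9510 HFD-only peaks (54.6%, 53.6 to 55.7%), by an alignment of at least 100 bp. It was matched by 155 of 9779 SCD-only peaks (1.59%), 335 of 11716 shared SCD peaks (2.86%) and 96 of 12177 shared HFD peaks (0.788%). Sequence alike to the body makes up 11.03% of the placed genome, which is a share of bases and so no expected share of peaks. Over the whole lists, 24.4% of HFD peaks and 2.28% of SCD peaks matched it, and of the SCD peaks scored 30 to 50, 5.40% did. The HFD-only body peaks were narrow and weak, with a median width of 513 bp and a median score of 61.2, and 0.577% of them overlapped an SCD peak scored 30 to 50. The best alignments of body peaks were 95.7% identical to the copy at the median over the HFD list, against 86.4% over the SCD list. The copy lies in an HFD-only peak chosen for its likeness to other HFD-only peaks. That choice favors the HFD list in identity and in number of matches, and no copy was chosen from SCD peaks.

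The 5′ end of the element was mostly at shared peaks. It was the best match of 1601 shared SCD peaks (13.7%) and 1029 shared HFD peaks (8.45%), and of 315 SCD-only peaks (3.22%) and 579 HFD-only peaks (6.09%). Past the first 0.456 kb of the element, 5127 HFD-only peaks had their best match, and the 22 bins of 250 bases there held 36 to 466 peaks each. SCD-only peaks numbered 136 over the same stretch, shared SCD peaks 175 and shared HFD peaks 75. Multi-mapped reads had been removed by the authors before peaks were called, which bears on repeats in both diets, and its part in these counts was not tested.

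**Figure D4:**
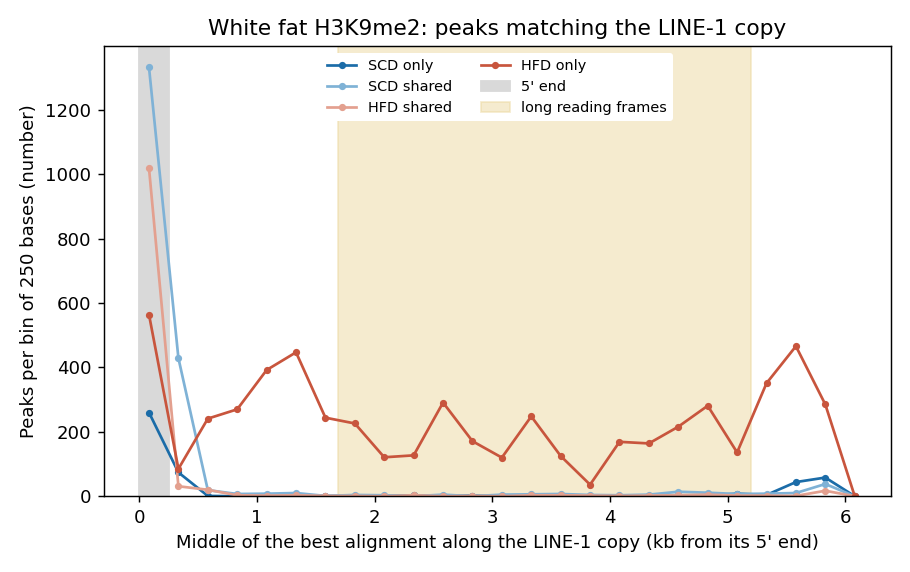
Number of white fat H3K9me2 peaks per 250 bases (y axis) by the middle of their best alignment along the LINE-1 copy (x axis, kb from its 5′ end), for the 4 classes, with the 5′ end and the span of the long reading frames shaded. Shared peaks gather at the 5′ end, and past it the HFD-only class holds 36 to 466 peaks a bin.

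Among the other lists of the series, HFD_BAT_H3K9me3, the other mark in brown adipose tissue (BAT) on the same diet, also had many peaks at the body (29.1%), and the other 5 lists had 1.58 to 5.02%. Of the HFD-only body peaks of white fat, 50.4% overlapped a peak of HFD_BAT_H3K9me3, 3.93% a peak of HFD_BAT_H3K9me2, 2.14% a peak of HFD_WAT_H3K9me3 and 3.52% or less a peak of any SCD list. Whether these libraries share a batch is not stated in the labels.

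Leaving out the peaks that matched the body turned the promoter comparison, in part by construction. The copy was chosen among HFD-only peaks, and 1.15% of the HFD-only body peaks lay at a promoter. Their removal had to raise the promoter share of HFD-only peaks and lower the share of HFD peaks without a counterpart. No like filter was built from SCD-only peaks. Without the peaks of either list that matched the body, an alternative added after the data were seen, the HFD list fell to 16683 peaks and the SCD list to 21256, and 28.9% of HFD peaks and 46.3% of SCD peaks had no counterpart. The promoter share of HFD-only peaks was then 40.04% and that of SCD-only peaks 33.6%. With a score of at least 80 in both lists the promoter shares were 44.5% in HFD only and 44.2% in SCD only, and with at least 100 they were 55.6% and 47.5%. The 3734 HFD-only peaks that matched no part of the element had a median GC of 63.0%, lay at promoters in 49.1% and overlapped an SCD peak scored 30 to 50 in 47.1%.

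Chromosomes differed along the same line. The ratio of HFD to SCD peaks ran from 0.8498 on chromosome 17 to 1.17 on chromosome 3 among the autosomes and was 1.52 on X. Over the 19 autosomes, which share both libraries, it had a Spearman rho of -0.867 with GC content. HFD-only body peaks ran from 1.27 per Mb on chromosome 11 to 2.44 per Mb on chromosome 6. Over the 19 autosomes they had a rho of 0.777 with the share of the chromosome alike to the body. That share ran from 6.47% on chromosome 11 to 13.6% on chromosome 3. X, left out of the rho, had a share of 21.7% but 2.05 such peaks per Mb, within the autosomal range. Without the body peaks the ratio ran from 0.704 on chromosome 5 to 0.836 on chromosome 6 and was 0.969 on X. HFD-only shares were highest on chromosome 3 (50.3%) and lowest on chromosome 9 (36.6%) among the autosomes, and SCD-only shares highest on chromosome 17 (52.2%) and lowest on chromosome 9 (41.8%).

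Of 1068 autosomal windows of 1 Mb with at least 10 peaks in either list, the median HFD share of peaks was 47.6%. The window at 37 to 38 Mb of chromosome 10, which holds no start of a protein-coding gene, had 1 SCD and 13 HFD peaks. At the other end, the window from 13 to 14 Mb of chromosome 17, with Sod2, Wtap, Tcp1 and the Tcte2 gene of the t-complex, had 47 SCD and 10 HFD peaks. The window from 10 to 11 Mb of chromosome 8 with Irs2, an adaptor of the insulin receptor, had 10 SCD and 2 HFD peaks.

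Of 22225 gene symbols, 11031 (49.6%) had a promoter peak in either diet. It was in SCD only for 2266 genes (10.2% of all), in HFD only for 1594 (7.17%) and in both for 7171 (32.3%), of which 6502 had strongest peaks that overlapped between the diets. Among genes with a peak these were 20.5%, 14.5% and 65.01%, the shares against which the lists that follow are set, and no difference between a list and all genes was tested. Of the 1594 HFD-only genes, 1008 (63.2%) had an SCD promoter peak scored 30 to 50, which left 586 with none in the deposited list. A gene with a promoter peak in both had a median HFD-to-SCD score ratio of 0.953. Promoters without a peak were poor in CpG, with a median ratio of observed to expected CpG of 0.263, against 0.641 in SCD-only genes, 0.735 in HFD-only genes and 0.765 in genes with both.

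The list of white adipocyte identity and adipogenesis had 7 genes in SCD only, 2 in HFD only and 17 in both of 34. Of its genes with a peak, 26.9% were in SCD only and 7.69% in HFD only, against 20.5% and 14.5% over all genes, which also lean to SCD only. Pparg, the master regulator of adipocyte differentiation, had a promoter peak of score 120.2 in SCD at chr6:115311556-115312561 and none in HFD. Lep stood at 119.18 in SCD and Cebpb, a factor upstream of Pparg, at 100.95, with no HFD peak at either. Stat5b, which carries growth hormone signals to the nucleus, stood at 179.35 in SCD and had no HFD peak. In HFD only, Gata3, a factor that restrains preadipocytes, had a score of 77.87 and Ncor1, a co-repressor of nuclear receptors, 50.26, and both had an SCD peak scored under 50 (32.06 and 39.96). Adipoq, Fabp4, Plin1 and Retn, genes of the mature fat cell, had no promoter peak in either list.

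The brown and beige list had 2 genes in SCD only, 2 in HFD only and 9 in both of 23. Of its genes with a peak, 15.4% were in SCD only and 15.4% in HFD only, against 20.5% and 14.5% over all genes. Prdm16, which drives brown and beige fate, had a score of 194.31 in SCD and 341.54 in HFD. Ppara, a regulator of fatty acid oxidation, had 87.7 in SCD and 227.25 in HFD. Ehmt1, itself a writer of H3K9me2, had 92.76 in SCD only, and Pdk4, a brake on glucose oxidation, 115.46 in SCD only. Cidea, a lipid droplet protein, had 53.55 in HFD and 36.15 in SCD, under the common score. Ucp1, the uncoupling protein of thermogenesis, had an SCD peak of 45.2, under the common score, and none in HFD.

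Lipid synthesis had 4 genes in SCD only, 3 in HFD only and 16 in both of 26. The 16 were 69.6% of its genes with a peak, near the 65.01% of all genes, and their median HFD-to-SCD score ratio was 0.855, against 0.953 over all genes. Fasn, the fatty acid synthase, went against that median, with a score of 123.67 in SCD and 173.31 in HFD. Srebf2, the regulator of cholesterol synthesis, also did, with 74.51 in SCD and 305.27 in HFD. Acly, which makes cytosolic acetyl-CoA, had 106.11 and Fads2, a desaturase, 101.67 in SCD with no HFD peak. Dgat1, which forms triglyceride, had 103.96 in HFD and no SCD peak at any score, while Dgat2 had 69.74 in HFD and 37.98 in SCD.

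Lipolysis and fatty acid oxidation had 2 genes in SCD only, 4 in HFD only and 14 in both of 32. The 14 were 70% of its genes with a peak, against 65.01% over all genes. Of its genes with a peak, 10% were in SCD only and 20% in HFD only, against 20.5% and 14.5% over all genes. The median HFD-to-SCD ratio of the 14 was 0.778. Prkaca, the catalytic subunit of protein kinase A, had 183.63 in SCD and 66.2 in HFD. Acadvl, the very long chain acyl-CoA dehydrogenase, had 100.71 in SCD only. Cpt2, of the carnitine shuttle, had 84.47 in HFD and 30.57 in SCD, and Acads, the short chain dehydrogenase, 80.49 in HFD only. The lipase gene Pnpla2 had an SCD peak of 47.39, under the common score, and none in HFD, and the lipase gene Lipe had none in either list.

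In insulin signaling, 7 genes were in SCD only, 2 in HFD only and 22 in both of 35. Of its genes with a peak, 22.6% were in SCD only, 6.45% in HFD only and 71.0% in both, against 20.5%, 14.5% and 65.01% over all genes. The SCD-only genes included Rptor (148.78), a partner of mTOR, Tsc1 (104.69), an inhibitor of mTORC1, and Akt1 (98.93), of which Rptor and Akt1 also had a second SCD promoter peak under the common score. Eif4ebp1, a repressor of translation, had 199.51 in HFD, with 48.16 in SCD, just under the common score. Tsc2, the partner of Tsc1, had 86.02 in HFD and 32.42 in SCD. Among genes with both, Irs2 had 114.66 in SCD and 443.56 in HFD at peaks that did not overlap, and Grb10, an inhibitor of the insulin receptor, 412.65 in SCD and 174.13 in HFD.

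MAPK signaling, the pathway that the study follows, had 15 genes in SCD only, 13 in HFD only and 56 in both of 101. Of its genes with a peak, 17.9% were in SCD only and 15.5% in HFD only, against 20.5% and 14.5% over all genes. Map3k8 (128.45) and Srf (107.96), a kinase and a transcription factor of the pathway, were in SCD only. Map2k1 and Map2k2, the kinases that phosphorylate ERK, had 160.75 and 154.33 in HFD, and 43.66 and 35.95 in SCD. Dusp3, a phosphatase of ERK, had 156.23 in HFD and 48.16 in SCD, and Elk4, an ETS factor, 121.11 and 49.11. All 4 of these HFD-only genes thus had a weaker SCD peak under the common score.

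The genes that the study names from its own reading of these samples are no independent evidence of a direction. Of 9, 2 were in SCD only, 0 in HFD only and 6 in both. Of the 8 with a peak these were 25%, 0% and 75%, against 20.5%, 14.5% and 65.01% over all genes. With 8 genes, these shares give no direction. Ppp3cc, a catalytic subunit of calcineurin, had a score of 170.11 in SCD, and Dusp2, a phosphatase of MAP kinases, had 131.52, and neither had an HFD peak. Map3k5, the stress kinase ASK1, had 274.08 in SCD and 183.91 in HFD. Met, the receptor of hepatocyte growth factor, had 217.94 in SCD and 104.96 in HFD. Hspa1a, a heat shock protein, had 177.14 in SCD and 107.01 in HFD. Vegfa, the vascular growth factor, had 93.77 in SCD and 126.77 in HFD, the higher score in HFD. Map3k14, the NF-kB-inducing kinase, had 104.34 in SCD and 74.17 in HFD, at different starts, and Mapk3 (ERK1) had an SCD peak of 33.9 and none of 50 or more in either.

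Inflammation genes of the TNF and NF-kB pathways had 8 in SCD only, 5 in HFD only and 15 in both of 48. Of those with a peak, 28.6% were in SCD only, 17.9% in HFD only and 53.6% in both, against 20.5%, 14.5% and 65.01% over all genes. Tradd, the adaptor of the TNF receptor, had 122.17 in SCD only at the common score, with a further SCD peak of 41.95. Rela, the p65 subunit of NF-kB, had 108.82 and Fadd, an adaptor of cell death, 81.63 in SCD only. Icam1 had 86.73 and Traf2 74.99 in HFD, with no SCD peak at any score. Bcl2l1, which blocks apoptosis, had 127.47 in HFD and 49.24 in SCD.

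Markers of other cells of the tissue had a promoter peak in 9.52% of the macrophage list, 50% of the endothelial list and 63.3% of the stromal list, against 49.6% of all genes. Of 21 macrophage markers, 0 were in SCD only, 1 in HFD only (Mertk, a receptor for dying cells, at 68.95 in HFD and 46.57 in SCD) and 1 in both (Fcgr3, at 600.16 in SCD and 1874.58 in HFD), while Emr1, Cd68, Csf1r and Itgam had none. Of 16 endothelial markers 1 was in SCD only, 2 in HFD only and 5 in both. Sox17 had 406.66 in SCD and 80.72 in HFD, and Sox18 had 79.34 and 365.79. Of 30 stromal genes 5 were in SCD only, among them Mmp2 (143.02), a collagenase of the matrix, and Cd34 (95.3), a marker of progenitors, 4 in HFD only, among them Tgfbr2, a TGF-beta receptor, at 138.57 in HFD and 36.02 in SCD, and 10 in both. Of endothelial markers with a peak, 12.5% were in SCD only and 25% in HFD only, against 20.5% and 14.5% over all genes. For stromal genes with a peak the shares were 26.3% and 21.1%. The part of cell composition in these counts was not tested.

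Wnt signaling, which restrains adipogenesis, had 6 genes in SCD only, 4 in HFD only and 34 in both of 51. Of its genes with a peak, 13.6% were in SCD only and 9.09% in HFD only, a ratio near that of all genes (20.5% and 14.5%). Dvl1, which relays the Wnt signal, had 126.71 and Wnt6 116.32 in SCD only. Tcf7l2, the nuclear effector, had 155.03 in HFD and 44.16 in SCD, and Sfrp2, a secreted inhibitor, 99.9 and 48.91. Clock genes had 4 in SCD only, 1 in HFD only and 13 in both of 21. Of clock genes with a peak, 22.2% were in SCD only and 5.56% in HFD only. Per3 had 108.3 and the output factor Tef 102.92 in SCD only.

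Among the enzymes and partners of H3K9 methylation, 88.9% of methyltransferase genes, 72.7% of demethylase genes and 94.7% of readers and partners had a promoter peak, against 49.6% of all genes. Of 9 methyltransferase genes 2 were in SCD only, 2 in HFD only and 4 in both. Setdb2 had 122.26 in SCD only. Suv39h2 had 220.71 in HFD and 47.05 in SCD, and Setdb1 77.89 and 32.06. Of 11 demethylase genes 0 were in SCD only, 1 in HFD only (Phf8, on X, at 74.81) and 7 in both. Of 19 readers and partners 2 were in SCD only, 1 in HFD only (Uhrf1, at 171.26 in HFD and 35.76 in SCD) and 15 in both. Of methyltransferase genes with a peak, 25% were in SCD only and 25% in HFD only, against 20.5% and 14.5% over all genes. The shares were 0% and 12.5% for demethylases and 11.1% and 5.56% for readers and partners.

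Housekeeping genes, listed for comparison, had 0 in SCD only, 5 in HFD only and 4 in both of 20. Eef1a1, an elongation factor, had 128.06 in HFD and 39.02 in SCD. Ribosomal protein genes had 7 in SCD only, 13 in HFD only and 22 in both of 80. Clustered protocadherins, cell adhesion genes of neurons, all had a promoter peak, 7 of 24 in SCD only, 0 in HFD only and 17 in both, with a median HFD-to-SCD ratio of 0.498. Solute carriers had 49 in SCD only and 22 in HFD only of 327, and keratins 7 and 2 of 46. Zfp zinc finger genes had 26 and 33 of 367. Of solute carriers with a peak, 26.9% were in SCD only and 12.1% in HFD only, against 20.5% and 14.5% over all genes. The same shares were 16.4% and 20.8% for Zfp genes, 16.7% and 31.0% for ribosomal protein genes and 29.2% and 0% for protocadherins. For the 11 keratins with a peak they were 63.6% and 18.2%, and for the 9 housekeeping genes with a peak 0% and 55.6%. Olfactory receptors, silent in fat, had 12 in SCD only, 7 in HFD only and 10 in both of 1087, so 2.67% had a promoter peak, against 49.6% of all genes.

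**Figure D5:**
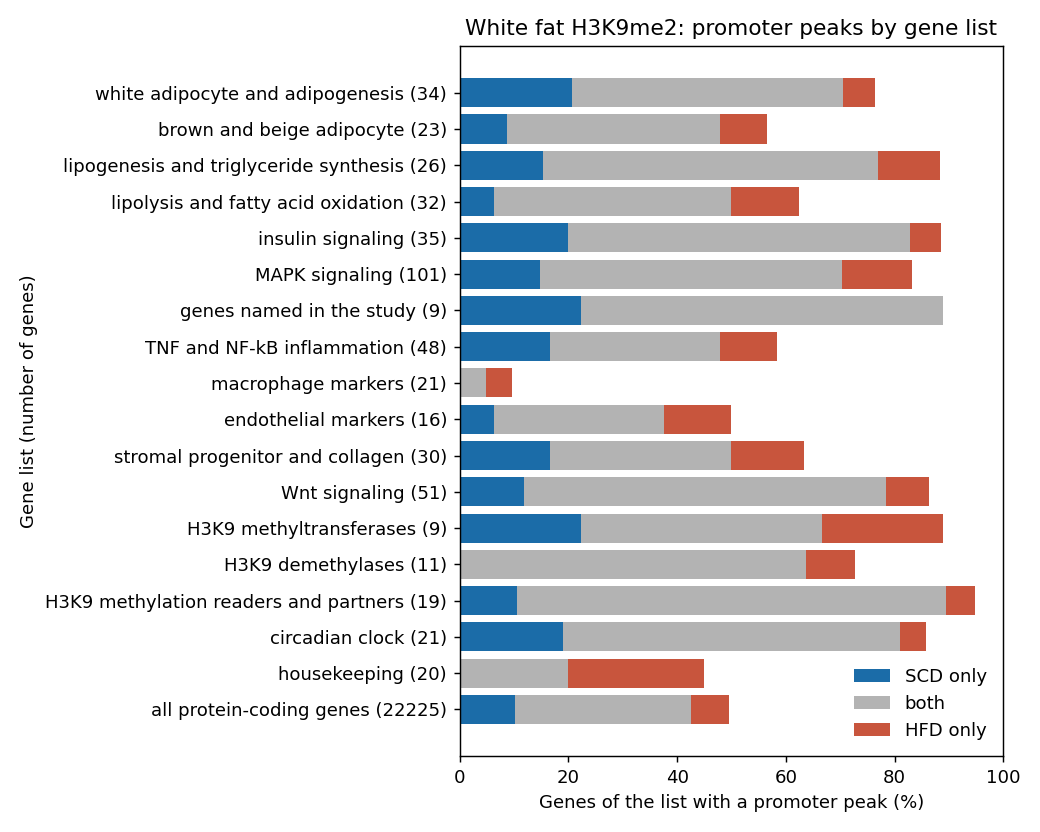
Share of the genes of each list (y axis, with the number of genes) that have a white fat H3K9me2 promoter peak (x axis, %) in SCD only (blue), both (grey) or HFD only (red). Over all 22225 genes the shares are 10.2%, 32.3% and 7.17%, and macrophage markers, H3K9 demethylases and housekeeping genes have no blue part.

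The strongest promoter peaks found in 1 diet were at genes outside these lists. The SCD-only gene with the highest score was 9230019H11Rik, with a peak of 6192 bp and a score of 3100 at chr10:7229263-7235454, and the next were Thada at 701.71 and Fggy, a carbohydrate kinase, at 698.62. The HFD-only promoter peak with the highest score, 3100, was at Tcte2 (chr17:13743313-13746172), a gene that had another peak, of 166.1, in SCD and so counts as both. Among genes with a peak in HFD only, the predicted genes Gm10800 and Gm10801 led with 3091.38 and 2215.07. Their peaks lie close together, at chr2:98506129-98507633 and chr2:98502130-98503244. The Gm10800 peak had 36.4% GC and overlapped a peak in 0 of the other 6 lists, so its score is uncertain. Elsewhere in its promoter, HFD_BAT_H3K9me3 had a peak of 101.84 and SCD_BAT_H3K9me3 one of 80.2. The Gm10801 promoter had peaks of 574.81 in HFD_BAT_H3K9me3, 168.9 in HFD_WAT_H3K9me3 and 80.2 in SCD_BAT_H3K9me3. The score of Gm10801, whose peak lies close by, is also taken with caution. Next came Nfya at 327.82, a subunit of the factor that binds CCAAT boxes, and AI314976, which shares that peak. Among genes whose peaks paired 1 to 1, Tmem125 had the largest HFD-to-SCD ratio, 3218.75 against 246.76, and Dux, a factor of the early embryo, the smallest, 72.74 against 626.82. Dux belongs to a tandem array of near-identical copies, so its values are uncertain.

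Shared peaks were also those found across the series. Of shared SCD peaks 98.1% overlapped a peak of HFD_BAT_H3K9me3 and 94.2% one of SCD_BAT_H3K9me3, against 68.0% and 44.0% of SCD-only peaks and 63.6% and 35.7% of HFD-only peaks. SCD_WAT_H3K9me3, from the same tissue and diet as the SCD list, overlapped 21.7% of SCD-only peaks, 18.3% of shared SCD peaks and 0.987% of HFD-only peaks. The GC box GGGCGG, searched on both strands, was in the central 200 bases of 47.3% of shared SCD peaks, 22.2% of SCD-only peaks and 16.8% of HFD-only peaks, against 39.95% of all promoters.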

How the data were processed

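H3K9me2 ChIP-seq peaks of SCD and HFD white fat were analysed, with the other 6 lists for overlaps. Reads were handled by the authors with FastQC, Trim Galore, Bowtie2 2.4.2 (mm9), removal of multi-mapped reads and MACS2. The deposited score has no stated unit. Inputs were not analysed here. The members and gene lists were chosen with earlier results of these data known.

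Chromosome lengths of NCBIM37 were checked against mm9, and 70051 starts of 22367 protein-coding genes came from GENCODE vM1. Peaks overlapping by 1 bp were shared. By rule, the named genes were up to 4 members of each list with the highest SCD-only and HFD-only scores, all genes named in the study, the 10 highest scores of each kind and the 5 largest and 5 smallest ratios. Other members of a list, given with both values or with no peak, were chosen after the values were seen, as was the LINE-1 copy, found with blastn 2.17.0 (E value of 1e-10). The overlap step, tested on 20000 simulated peaks, returned the simulated share of 30%. Its total of SCD peaks that overlap an HFD peak differed by 0 from that of bedtools 2.31.1, and single calls were not compared. Some genes that the rule names are not reported here. Alternatives were higher scores, equal numbers, merging, other overlaps, promoters, starts and chromosomes. Python 3.11.15, NumPy 2.4.6, SciPy 1.17.1 and matplotlib 3.10.9 were used.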

Additional observations from a re-analysis of the deposited data

Results flagged for a closer look

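The extent of H3K9me2 moved in opposite directions between the fat depots. At a score of 50 or more, WAT went from 21.8 Mb in SCD to 16.1 Mb in HFD (HFD minus SCD, -5.72 Mb) and BAT from 27.5 to 45.8 Mb (18.3 Mb). The share of peaks that matched the LINE-1 body moved by 22.1 percentage points in WAT and by -0.514 in BAT, HFD minus SCD. The LINE-1 copy was chosen among HFD-only peaks of WAT, which favors matches in that list. Each group is 1 library, and the difference between the depots was not tested.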

How the results depend on the processing

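With a score of at least 80, 12797 SCD and 10881 HFD peaks (9.91 Mb) were left, 47.9% and 37.2% had no counterpart, promoter shares were 44.2% in SCD only and 44.5% in HFD only (SCD minus HFD, -0.359 points against 13.2 at 50), and 4189 genes had both. At 100 there were 9623 SCD (11.8 Mb) and 7874 HFD peaks (7.78 Mb), 50.6% and 38.2% without a counterpart, promoter shares of 47.5% (SCD only), 56.5% (SCD shared), 55.6% (HFD only) and 56.7% (HFD shared), a reversed difference of -8.10 points, 2940 genes with both and 436 more SCD-only than HFD-only genes. Without peaks matching the LINE-1 body, 28.9% of HFD peaks had no counterpart, promoter shares were 40.04% (HFD only), 59.9% (SCD shared) and 60.3% (HFD shared), and the difference was -6.45 points. That setting removes mainly HFD-only peaks, among which the copy was chosen, so its direction follows in part from the choice. With the lists as deposited, 40013 SCD peaks gave a difference of -16.4 Mb, HFD minus SCD, 65.5% of SCD and 35.2% of HFD peaks had no counterpart, promoter shares were 26.4% in SCD only and 11.2% in HFD only, and 4003 genes were SCD only and 586 HFD only, 3417 fewer. Merging within 1 kb gave 44.7% of SCD and 43.5% of HFD peaks without a counterpart and a promoter share of 32.0% in SCD only. Promoters of 1 kb held 26.6%, 54.5%, 17.7% and 54.6% of SCD-only, SCD shared, HFD-only and HFD shared peaks, and 1 start a gene 24.9%, 52.0%, 17.5% and 52.4%, a difference of 7.43 points. On autosomes alone 43.2% of HFD peaks had no counterpart and the shared promoter shares were 59.1% in SCD and 59.5% in HFD. Without peaks overlapping all 8 lists, 52.5% of SCD and 51.1% of HFD peaks had no counterpart and the shared promoter shares were 63.5% and 63.9%. The causes were not tested. Of 49 named SCD-only calls 42 were kept at a score of 80, 34 at 100 and 49 with the lists as deposited. The last count could not be lower, because the deposited lists add SCD peaks and no HFD peaks. It is therefore no measure of stability beside the HFD-only calls. Of 50 named HFD-only calls 32, 25 and 13 were kept, and 37 became both with the lists as deposited. No call could move to the other diet in these settings, which only remove peaks or only add SCD peaks. With 1 library a group, nothing separates diet from library. No paired analysis was possible because each group has 1 sample.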
